A study of Mus musculus with 12 samples.

Results

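Proteoglycan and tenascin genes of the perineuronal matrix, several of them made by oligodendrocyte precursor cells (OPCs), were followed across 4 sorted populations of mouse glioblastoma (GBM) cells. The members were chosen by name as 9 genes, Cspg4, Cspg5, Bcan, Ncan, Vcan, Tnr, Tnc, Ptprz1 and Hapln1. Of these, 8 had a row among the 18180 genes of the expression table. Hapln1 had none and was not analysed here. RNA was sequenced in bulk from EGFR+ cells of 3 tumors, T3, T4 and T5, each sorted into PDGFRA+, PDGFRA-, GAL1+ and GAL1- fractions, giving 12 libraries with 3 per population. By the study's methods, EGFR was stained together with PDGFRA or with galectin-1, never both. The PDGFRA and GAL1 fractions thus came from separate sorts, and a fraction of each can hold the same kind of cell. GAL1 is galectin-1, the product of Lgals1, and PDGFRA is the receptor that defines OPCs. All 4 populations came from the same mouse model on a mixed background (C57Bl/6J, 129S4, FVBN/J and Balb/cJ in the labels), in adult mice of both sexes with end-stage tumors. In this model the mice are Cdkn2a-/-, and a Cre lentivirus injected into the brain switches on a conditional human EGFR transgene and a luciferase reporter. The tumors were described as oligoclonal, and the cell type in which each began is not given in the sources used here.

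Lecticans are chondroitin sulfate proteoglycans that bind hyaluronan through their N-terminal domains and tenascins through their C-terminal domains. Link proteins of the Hapln family lock the lectican to hyaluronan, and tenascin-R cross-links neighbouring lecticans into the nets that surround mature neurons. In the adult brain OPCs are a main source of several of these molecules, and NG2, the product of Cspg4, is the proteoglycan by which they are usually recognised, although pericytes carry it too.

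The depth recovered from the table was 9851175 to 24117541 reads per library, and the deepest 3 libraries were the GAL1- ones. Each member was far above the floor of 3 reads in every library, with 535 reads as the fewest. The sort markers were examined first. Lgals1 differed between the fractions sorted on galectin-1, with 7.66 ± 0.27 log2 CPM in GAL1+ and 6.38 ± 0.39 in GAL1- cells (SD, n = 3, adjusted p = 0.000967, limma). Pdgfra was at 10.30 ± 0.45 log2 CPM in PDGFRA+ and 8.70 ± 1.38 in PDGFRA- cells (adjusted p = 0.249, limma), so its transcript did not pass the test between the fractions sorted on its protein. In GAL1- cells Pdgfra was at 10.55 ± 0.24. Egfr, counted on the mouse genome although the transgene is human, was at 8.41 ± 0.68 log2 CPM in GAL1+ and 10.51 ± 0.12 in GAL1- cells (adjusted p = 0.000461, limma). It was at 10.18 ± 0.29 in PDGFRA+ cells (adjusted p = 0.00370 against GAL1+, limma) and at 9.45 ± 1.12 in PDGFRA- cells. Its relation to the member differences was not tested. The PDGFRA- library of T5 stood apart from its group, as the lowest of the 3 for each of the 8 members, and the PDGFRA- comparisons are given with and without it. The study's results name the sorted cells CD45-, while its methods list no CD45 antibody for this sort. Ptprc, which encodes CD45, was at 8.65 ± 0.40 log2 CPM in GAL1+ and 4.60 ± 0.79 in GAL1- cells.

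The 8 members together took 0.862% ± 0.065 of reads in GAL1- cells and 0.654% ± 0.158 in PDGFRA+ cells (SD, n = 3). They took 0.436% ± 0.207 in PDGFRA- and 0.175% ± 0.093 in GAL1+ cells. The GAL1+ libraries were therefore the low ones for this matrix and the GAL1- libraries the high ones, with the PDGFRA- group the most variable. In a bulk library, fewer cells of a type and less RNA per cell cannot be told apart.

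**Figure D1:**
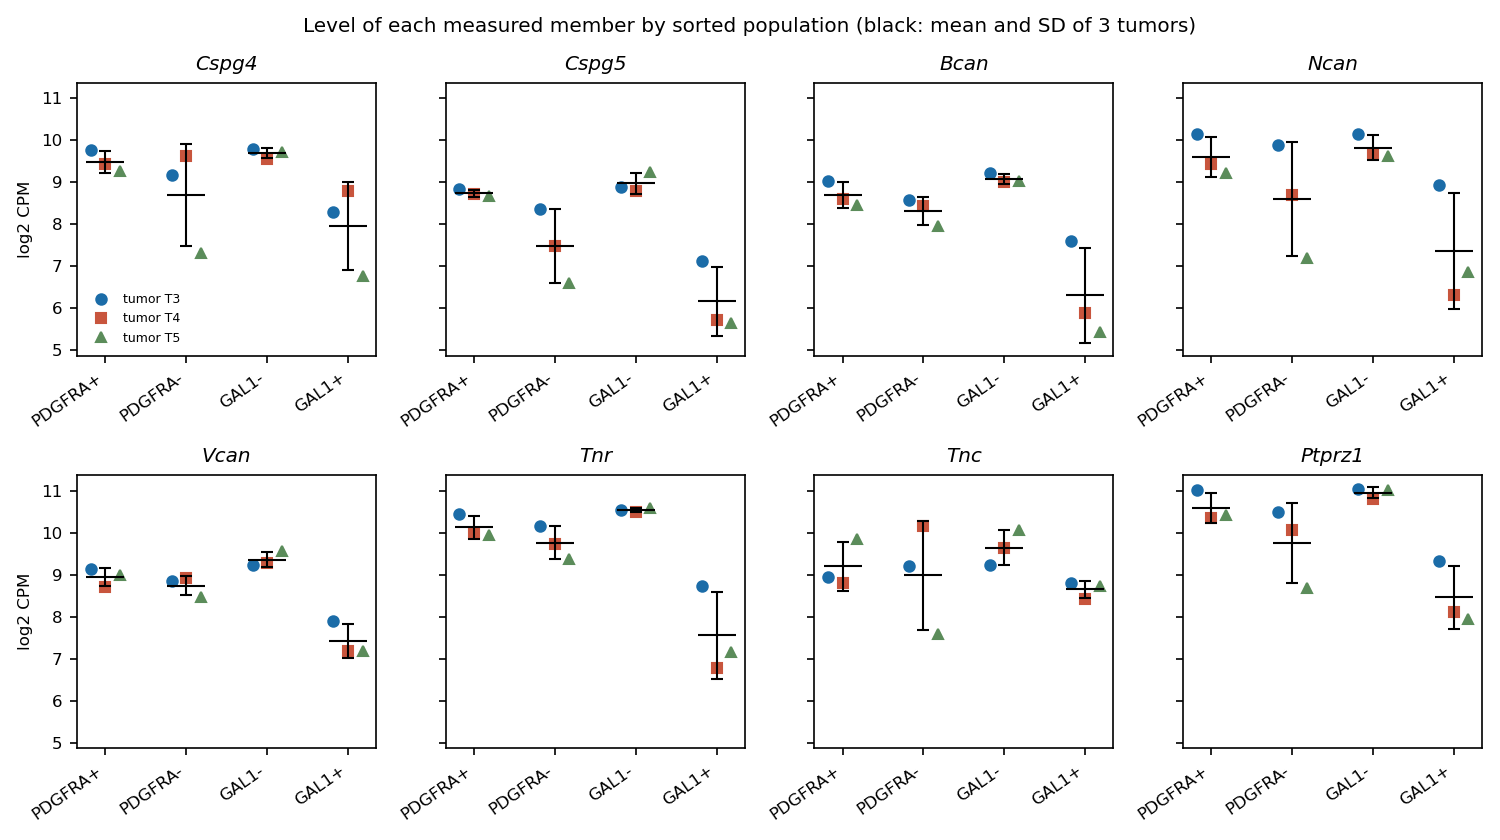
Level of each of the 8 measured members (vertical axis, log2 CPM) in the 4 sorted populations (horizontal axis), with 1 point per tumor and the mean and SD of 3 tumors in black. GAL1+ cells had the lowest mean for each member, the PDGFRA- points spread most for Cspg4, Ncan and Tnc, and Tnc had the smallest gap between GAL1+ and the other populations.

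Each level is written as log2 CPM, the log2 of reads scaled to a common library size (CPM). Among the lecticans, Bcan (brevican) was at 7.60, 5.89 and 5.43 in the GAL1+ cells of T3, T4 and T5 and at 9.21, 9.01 and 9.02 in their GAL1- cells. The PDGFRA+ libraries had 9.03, 8.59 and 8.46 and the PDGFRA- libraries 8.58, 8.43 and 7.95. Every GAL1+ library thus lay below every library of the other populations, and T3 was the highest of the GAL1+ libraries. Ncan (neurocan), a lectican of the developing brain, was at 8.94, 6.33 and 6.85 in GAL1+ cells and at 10.15, 9.68 and 9.62 in GAL1- cells. Its PDGFRA+ values were 10.14, 9.44 and 9.22, and its PDGFRA- values of 9.89, 8.71 and 7.20 ran from within the GAL1+ range to within the PDGFRA+ range. T3 was the highest tumor for Ncan in each population. Vcan (versican), a broadly expressed lectican, was at 7.89, 7.19 and 7.18 in GAL1+ cells against 9.23, 9.29 and 9.56 in GAL1- cells. The groups did not overlap, and Vcan varied less between tumors than Bcan or Ncan did in GAL1+ cells (SD of 0.41 against 1.14 and 1.38).

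Among the tenascins, Tnr (tenascin-R) was at 8.73, 6.78 and 7.15 in GAL1+ cells and at 10.54, 10.49 and 10.58 in GAL1- cells. Its PDGFRA+ libraries had 10.44, 9.99 and 9.95 and its PDGFRA- libraries 10.16, 9.74 and 9.37. The 3 GAL1- tumors agreed within an SD of 0.04, the tightest group of any member. Tnc (tenascin-C), which is made in developing, injured and tumor tissue, was at 8.81, 8.42 and 8.72 in GAL1+ cells and at 9.24, 9.63 and 10.06 in GAL1- cells. The PDGFRA+ values were 8.94, 8.79 and 9.86 and the PDGFRA- values 9.20, 10.15 and 7.59. The PDGFRA- library of T4 was the highest of all 12 for Tnc and that of T5 the lowest, so that group covered both ends of the range.

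Among the membrane members, Cspg4 was at 8.29, 8.79 and 6.78 in GAL1+ cells and at 9.79, 9.55 and 9.72 in GAL1- cells. T4 was the highest GAL1+ library for Cspg4, whereas T3 was the highest for Cspg5, Bcan, Ncan, Vcan, Tnr, Tnc and Ptprz1. Cspg5 (neuroglycan C), a membrane proteoglycan with an EGF-like domain, was at 7.12, 5.72 and 5.65 in GAL1+ cells against 8.88, 8.79 and 9.24 in GAL1- cells. Ptprz1, a receptor-type tyrosine phosphatase whose secreted form is the proteoglycan phosphacan, was at 9.33, 8.12 and 7.95 in GAL1+ cells and at 11.04, 10.80 and 11.00 in GAL1- cells. For both genes the GAL1+ and GAL1- libraries did not overlap.

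Members can be set against each other only per length, so CPM was divided by the kilobases of merged exon in GENCODE vM21. In GAL1- cells Ptprz1 (139 CPM per kb), Bcan (133.5), Ncan (127) and Tnr (115) came first, and each of these overlapped its neighbour in range. Tnc followed with 106, then Cspg4 with 69.2, Cspg5 with 50.3 and Vcan with 45.6, and only the steps from Tnc to Cspg4 and from Cspg4 to Cspg5 were free of overlap. In GAL1+ cells the order was different, with Tnc first by mean at 52.0 ± 7.0 CPM per kb (SD, n = 3). Ncan was next at 31.8 ± 31.6, and the other 6 members lay between 8.01 (Cspg5) and 27.3 (Ptprz1), each overlapping its neighbour. The Ncan value of T3 in GAL1+ cells, 68.1, was above all 3 Tnc values, of 44.2 to 57.6. By mean Tnc also ranked 1 of 8 in PDGFRA- cells, at 82.2 ± 60.8, and 5 of 8 in GAL1- and in PDGFRA+ cells.

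Because 7 of the members moved together and Tnc less so, the sequences before their starts are shown for 3 of the former, Bcan, Ncan and Tnr, and for Tnc. The sequences are the 250 bases before the start in RefSeq (build GRCm38.p6, not the mm39 build of the expression table), read 5′ to 3′ on the gene's strand. Capitals mark CAGCTG (an E-box), ACAAAG (a SOX-type motif) and TATAAA on either strand, and no match overlaps another.
Bcan, chr3:88000357-88000606, minus strand: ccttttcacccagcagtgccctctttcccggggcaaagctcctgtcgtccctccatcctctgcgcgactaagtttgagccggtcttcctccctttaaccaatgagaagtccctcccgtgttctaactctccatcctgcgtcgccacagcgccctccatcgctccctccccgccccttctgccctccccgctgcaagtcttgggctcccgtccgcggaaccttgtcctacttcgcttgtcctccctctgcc
Ncan, chr8:70120845-70121094, minus strand: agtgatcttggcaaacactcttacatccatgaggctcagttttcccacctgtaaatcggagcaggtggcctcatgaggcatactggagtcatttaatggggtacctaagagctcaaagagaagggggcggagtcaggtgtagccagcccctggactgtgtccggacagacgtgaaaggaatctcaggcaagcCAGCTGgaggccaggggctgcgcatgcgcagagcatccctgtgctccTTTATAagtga
Tnr, chr1:159523519-159523768, plus strand: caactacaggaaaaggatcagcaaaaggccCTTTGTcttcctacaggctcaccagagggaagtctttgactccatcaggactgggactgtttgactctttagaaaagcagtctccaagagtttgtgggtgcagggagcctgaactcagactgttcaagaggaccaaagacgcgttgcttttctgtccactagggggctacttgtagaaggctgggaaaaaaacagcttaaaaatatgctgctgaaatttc
Tnc, chr4:64047016-64047265, minus strand: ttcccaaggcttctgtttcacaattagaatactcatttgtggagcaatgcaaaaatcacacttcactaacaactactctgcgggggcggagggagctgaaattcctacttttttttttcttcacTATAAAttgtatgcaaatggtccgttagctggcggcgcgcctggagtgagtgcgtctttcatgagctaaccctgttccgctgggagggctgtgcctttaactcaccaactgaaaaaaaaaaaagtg
RefSeq promoter entries were found for 7 of the 8 measured members. CAGCTG occurred in Ncan alone among those 7, against 13% of 32851 promoters of the same length. ACAAAG occurred in Tnr alone, against 16.5% of promoters, and TATAAA in Ncan and Tnc, against 12.4%. CpG dinucleotides numbered 2 in Tnr, 6 in Ncan, 8 in Tnc, 16 in Bcan and 22 in Ptprz1, and the median promoter had 6. These are letter matches in 1 window per start, and a second, downstream Tnc start is not shown.

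Comparing the GAL1 fractions asks how the matrix genes differ between cells sorted as positive and as negative for galectin-1. In GAL1- cells 7 of the 8 members were higher and none was lower, from Cspg4 at a log2 fold change of 1.73 ± 0.43 (SE, adjusted p = 0.00652) to Tnr at 2.98 ± 0.31 (adjusted p = 6.5e-05, limma). The median over the members was 2.46, against 0.03 over all genes. Of all genes tested, 29.3% were called higher and 28.9% lower in this comparison. Tnr was 7.90-fold, Cspg5 6.99-fold, Bcan 6.84-fold, Ptprz1 5.59-fold and Ncan 5.44-fold higher. Tnc had a log2 difference of 0.99 ± 0.56 (95% interval -0.26 to 2.24, adjusted p = 0.153, limma) and did not pass, although its 3 GAL1- values lay above its 3 GAL1+ values. All 8 members had every GAL1- library above every GAL1+ library, which held for 30.5% of all genes. Without T3, Cspg4 did not pass (adjusted p = 0.0609, limma). Tnc passed in 3 alternatives, without the T5 PDGFRA- library (adjusted p = 0.00999, limma), which here changes only the pooled spread, with only the 2 populations in the fit (0.0121) and after quantile normalization (0.0435).

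PDGFRA+ cells were likewise higher than GAL1+ cells for 7 of the 8 members, again without Tnc. Here 20.9% of all genes were called higher and 17.0% lower, and with every library centred on its median 40.8% of the called genes were higher, against 55.1% on the deposited scale. The differences ran from 0.55 for Tnc (adjusted p = 0.460, limma) and 1.52 for Vcan to 2.57 for Tnr and for Cspg5, with a median of 2.18. For Bcan the difference was 2.39 ± 0.32 (SE, adjusted p = 0.00148) and for Ptprz1 2.13 ± 0.32 (adjusted p = 0.00199, limma). Every PDGFRA+ library lay above every GAL1+ library for 23.5% of all genes and for 7 of the 8 members. For Tnc the lowest PDGFRA+ value, 8.79 log2 CPM, was under the highest GAL1+ value, 8.81. Cspg4 (log2 difference 1.53) lost its call without the tumor block and without T3, with adjusted p of 0.0855 and 0.156 in limma, and Ncan lost it without the block (adjusted p = 0.0516, limma). This comparison and those that follow share libraries with the GAL1 comparison, so they are not independent of it.

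**Figure D2:**
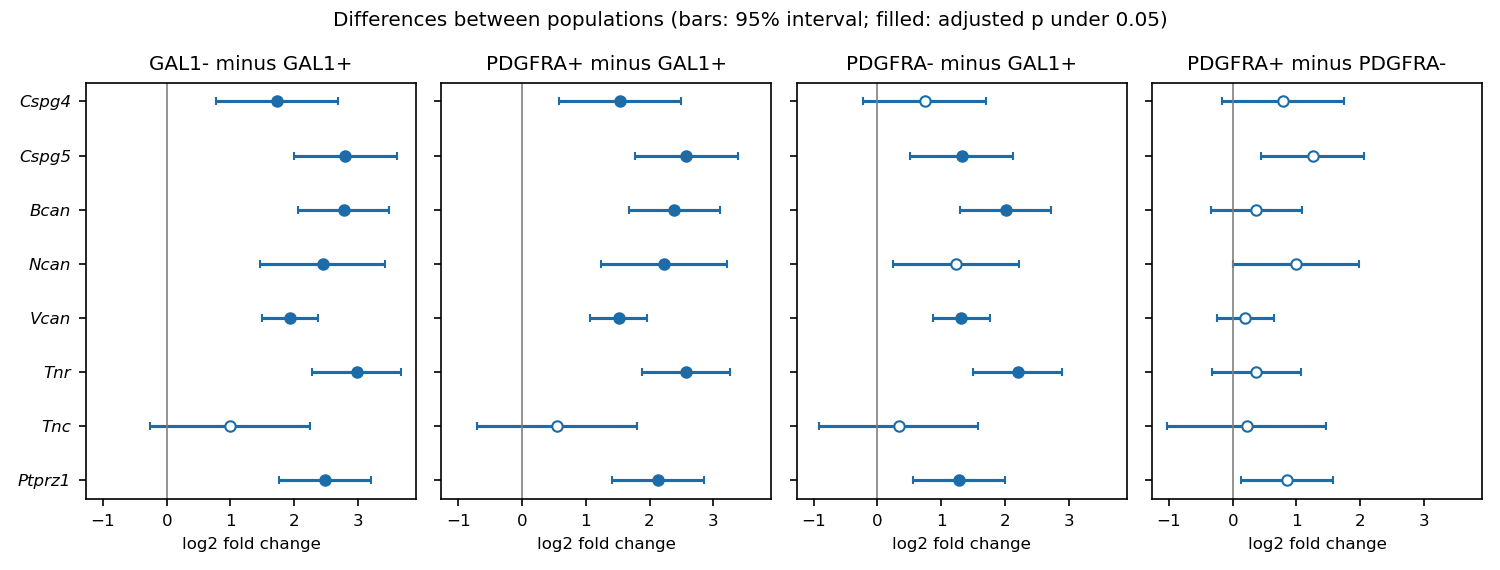
Log2 fold change of each measured member (horizontal axis) in 4 comparisons, with 95% intervals. Filled points have an adjusted p under 0.05. The intervals of 7 members clear 0 in GAL1- minus GAL1+ and in PDGFRA+ minus GAL1+, that of Tnc spans 0 in all 4, and no point is filled in PDGFRA+ minus PDGFRA-.

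Other marker lists were read beside the members in the same 2 comparisons. All 8 oligodendrocyte lineage genes (Olig1, Olig2, Sox10, Nkx2-2, Gpr17, Lhfpl3, C1ql1 and Sox8) were higher in GAL1- than in GAL1+ cells, with a median of 2.89, and all 8 were higher in PDGFRA+ than in GAL1+ cells, with a median of 2.38. All 10 pan-leukocyte markers were lower in both, with medians of -4.35 and -1.59. The leukocyte markers summed to 2426 to 3347 CPM in GAL1+ libraries, 564 to 1276 in PDGFRA+, 602 to 2597 in PDGFRA- and 75.5 to 198 in GAL1-, and none of them was at the floor throughout a population. Of 7 pericyte markers, 7 were lower in GAL1- than in GAL1+ cells and their sum was 27.4 to 53.1 CPM against 236 to 321, which bears on Cspg4 because pericytes make it. All 8 microglia and macrophage markers, all 5 monocyte markers, all 7 endothelial markers and 5 of 6 fibroblast markers were lower in GAL1- cells as well, while 6 of 6 myelinating oligodendrocyte, 3 of 7 astrocyte and 3 of 7 neuron markers were higher. In PDGFRA+ against GAL1+ cells, 7 of 8 microglia and macrophage and all 5 monocyte markers were called lower. There 0 of 7 endothelial, 1 of 7 pericyte and 1 of 6 fibroblast markers were called lower. Called higher were 1 of 6 myelinating oligodendrocyte, 3 of 7 astrocyte and 3 of 7 neuron markers. The part of these cells in the member differences was not tested.

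**Figure D3:**
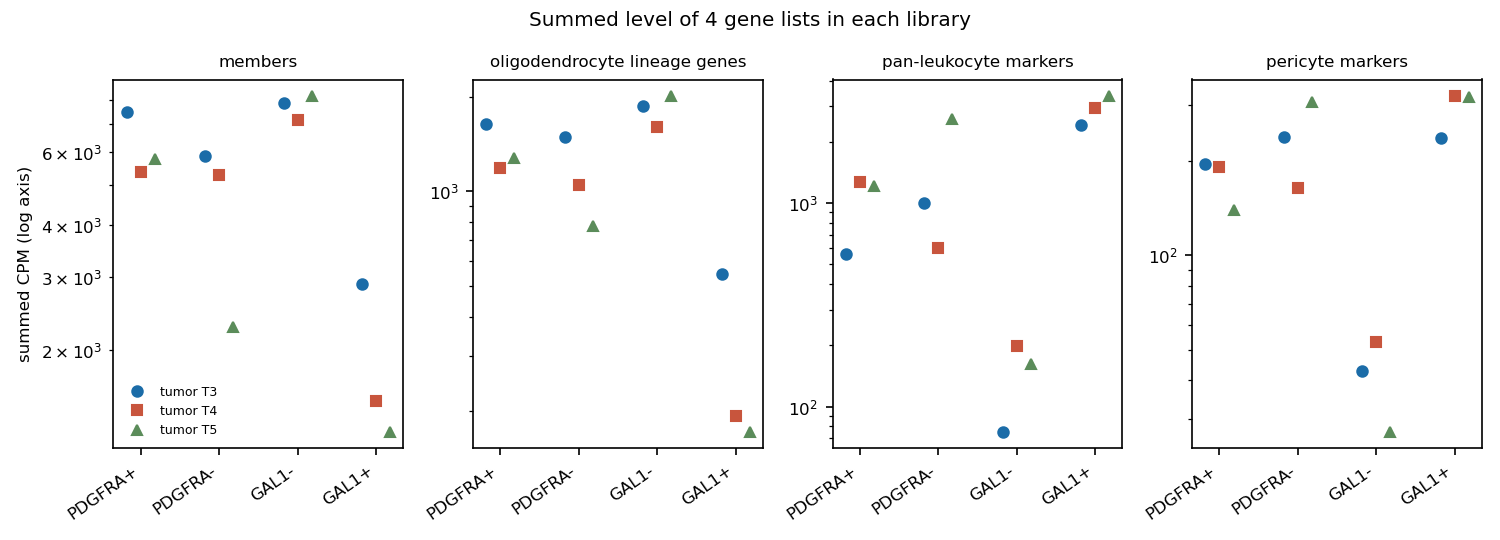
Summed CPM on a log axis of the 8 members, 8 oligodendrocyte lineage genes, 10 pan-leukocyte markers and 7 pericyte markers in each of the 12 libraries. The members and the lineage genes are lowest in GAL1+ libraries, where the leukocyte markers are at 2426 to 3347 CPM and the pericyte markers at 236 to 321.

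PDGFRA- cells were intermediate for the members. The myelinating oligodendrocyte markers summed to 693 to 1004 CPM in PDGFRA- libraries, 340 to 579 in GAL1-, 258 to 332 in PDGFRA+ and 162 to 292 in GAL1+. Against GAL1+ cells 5 of 8 members were higher (Cspg5, Bcan, Vcan, Tnr and Ptprz1), beside 13.2% of all genes called higher and, of the called genes, 65.6% higher on the deposited scale and 46.9% after median centring. The values ran from 0.33 for Tnc to 2.20 ± 0.31 (SE) for Tnr. All 8 lineage genes (median 1.86), 6 of 6 myelinating oligodendrocyte, 1 of 7 astrocyte and 3 of 7 neuron markers were called higher too. Called lower were 3 of 10 pan-leukocyte, 4 of 8 microglia and macrophage, 1 of 7 endothelial and 1 of 6 fibroblast markers. None of the 5 monocyte or 7 pericyte markers was called. With T4 left out no member and no gene of the table passed in limma, though 3649 genes had an unadjusted p under 0.05, and with T3 left out Cspg5 and Ptprz1 did not. Without the T5 PDGFRA- library 7 members passed, and the log2 difference of Tnc was 1.22 in place of 0.33. Against PDGFRA- cells, GAL1- cells were higher for 2 members, Cspg5 at 1.48 ± 0.36 and Ptprz1 at 1.20 ± 0.32 (SE), where 6.88% of all genes were called higher and 16.2% lower and 29.8% of the called genes were higher, or 48.6% after median centring. Under quantile normalization 7 members passed and under median centring 6, where 13.8% and 12.7% of all genes were called higher. Without the T5 PDGFRA- library the values were 1.09 and 0.77, and neither passed (adjusted p = 0.0815 and 0.0929, limma), nor did Cspg5 without T4 (0.0579) or Ptprz1 without T3 (0.0619). In the same comparison all 10 pan-leukocyte (median -3.10) and 8 of 8 microglia and macrophage markers were lower in GAL1- cells. All 5 monocyte, 7 endothelial and 7 pericyte markers were lower too, with 3 of 6 myelinating oligodendrocyte and 1 of 6 fibroblast markers. Called higher were 3 of 8 lineage, 3 of 7 astrocyte and 1 of 7 neuron markers. The part of these cells in either comparison was not tested.

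Between PDGFRA+ and PDGFRA- cells no member passed in limma, and 0% of genes did, while 2137 genes had an unadjusted p under 0.05. The members were at log2 differences of 0.20 (Vcan) to 1.25 (Cspg5), the largest being 1.25 ± 0.36 (SE, adjusted p = 0.274, limma) for Cspg5. Cspg5, Ncan and Ptprz1 had unadjusted p-values under 0.05. Without the T5 PDGFRA- library the log2 difference was 0.48 in place of 1.00 for Ncan, 0.41 in place of 0.85 for Ptprz1, 0.33 in place of 0.79 for Cspg4 and 0.86 in place of 1.25 for Cspg5. For Tnc the difference was 0.22 and turned to -0.67 without that library, for Vcan it was 0.06 in place of 0.20, and Bcan and Tnr were then at 0.38 and 0.27 in place of 0.37 for both. The interval for Vcan, -0.25 to 0.64, was the narrowest and that for Tnc, -1.03 to 1.47, the widest.

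GAL1- cells and PDGFRA+ cells were the 2 populations with the largest share of reads from the members. None of the 8 members passed between them, with 0.0110% of all genes called higher and 8.26% called lower, and the differences ran from 0.20 (Cspg4) to 0.44 (Tnc) in favour of GAL1- cells in each of the 3 tumors. Intervals were -0.03 to 0.86 for Vcan and -0.29 to 1.10 for Tnr, which hold both 0 and differences of that size. All 10 pan-leukocyte markers were lower in GAL1- than in PDGFRA+ cells, with a median of -2.78, as were 8 of 8 microglia and macrophage and 7 of 7 endothelial markers. With only these 2 populations in the fit, 2 members passed in limma, Bcan at 0.39 (adjusted p = 0.0301) and Vcan at 0.42 (adjusted p = 0.0406). In that fit 3386 of the 18180 genes were called in either direction, against 1504 in the reported fit.

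The difference between the sorts was tested directly, as GAL1- minus GAL1+ less PDGFRA+ minus PDGFRA-, a contrast in which 14.5% of all genes were called higher. It passed for 5 members, Tnr at 2.61 ± 0.44, Bcan at 2.40 ± 0.45, Vcan at 1.74 ± 0.28, Ptprz1 at 1.64 ± 0.46 and Cspg5 at 1.55 ± 0.51 (SE). Cspg4 was at 0.94 (adjusted p = 0.260), Ncan at 1.45 (adjusted p = 0.104) and Tnc at 0.77 (adjusted p = 0.478, limma). In the reported fit the GAL1 sort separated Tnr, Bcan, Vcan, Ptprz1 and Cspg5 by more than the PDGFRA sort did. Without T4, 2 of the members passed, without T3, 3 did, and without the T5 PDGFRA- library 7 did. Over all genes 1896 passed without T4 and 2578 without T3, against 5651 in the reported fit and at most 7252 under any alternative. Cspg5 did not pass with any one tumor left out (adjusted p = 0.0535 to 0.225, limma). Ptprz1 did not pass without T3 or without T4 (0.0756 and 0.191), and Bcan did not without T4 (0.0617, limma). Tnr and Vcan passed in all 14 alternatives.

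To set the members against the lineage as a whole, each level was also taken relative to the mean of the 8 lineage genes in the same library. On this scale Tnr lay within 2.99 and 3.45 log2 units above the lineage mean in all 12 libraries, and Bcan within 1.55 and 2.14. Tnr in GAL1+ cells was at 3.27, 2.99 and 3.28, and in GAL1- cells at 3.32, 3.42 and 3.26. Both genes thus kept a nearly fixed distance from the lineage genes while the level of both changed several-fold. Tnc was at 3.35, 4.64 and 4.84 above the lineage mean in GAL1+ cells and at 2.02, 2.56 and 2.74 in GAL1- cells. All 3 GAL1+ values exceeded the 3 GAL1- values, whereas the PDGFRA- values of 2.32, 3.77 and 1.66 overlapped both.

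**Figure D4:**
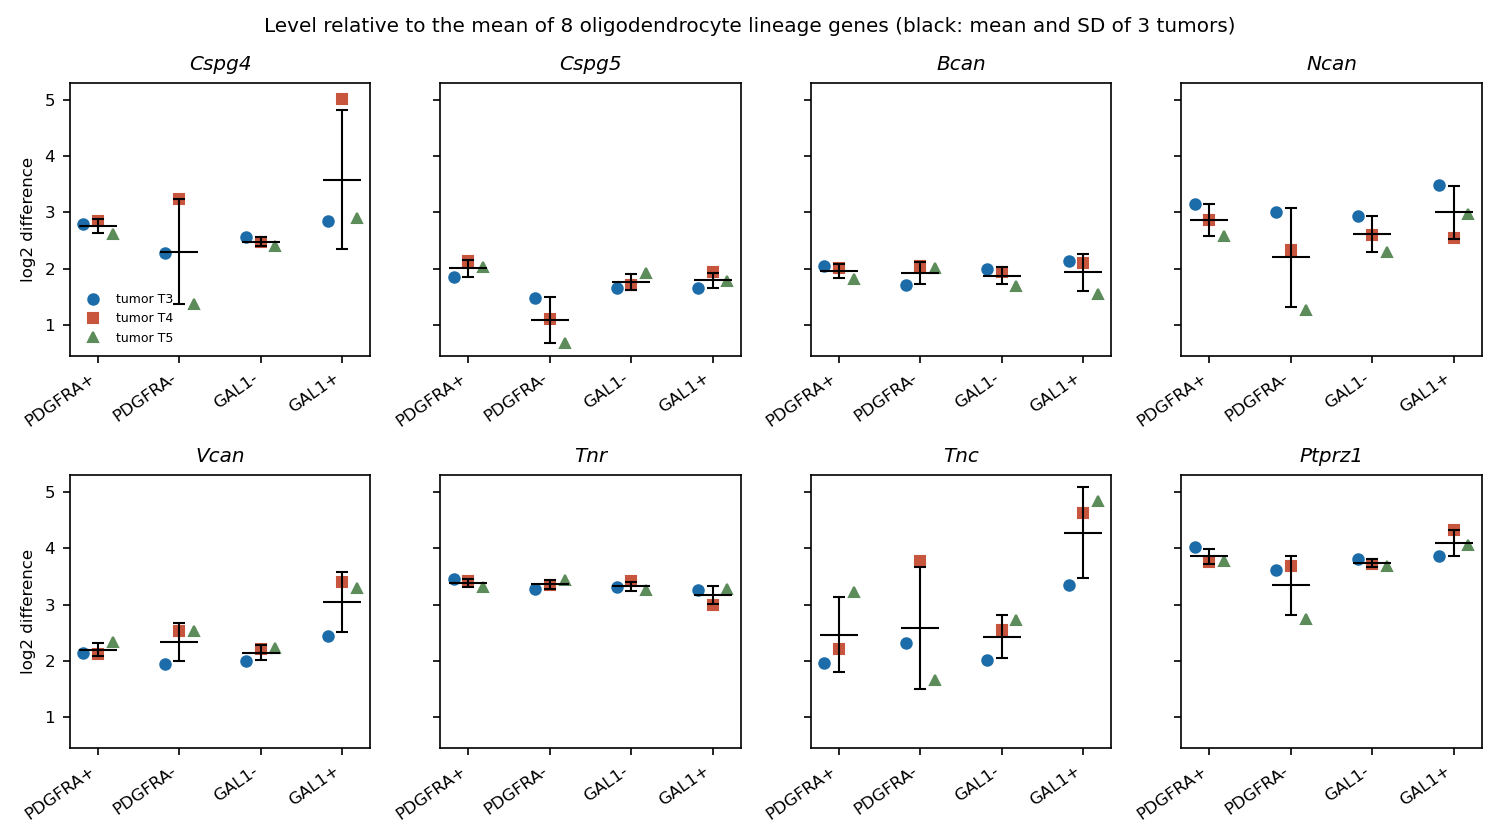
Level of each measured member relative to the mean of 8 oligodendrocyte lineage genes (vertical axis, log2 difference) in the 4 populations, with 1 point per tumor and the mean and SD of 3 tumors in black. Tnr and Bcan stay level across populations, Tnc and Vcan are highest in GAL1+ cells, and the GAL1+ library of T4 is at 5.01 for Cspg4.

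In the fit on these relative values, 3 of 8 members were lower in GAL1- than in GAL1+ cells, where 91.7% of all genes were called lower. They were Tnc at -1.84 ± 0.41 (SE), Cspg4 at -1.10 ± 0.41 and Vcan at -0.90 ± 0.41. In PDGFRA+ against GAL1+ cells 2 of 8 were lower, Tnc at -1.81 and Vcan at -0.84, where 90.1% of all genes were. Vcan lost that call in 6 of the alternatives, among them without T4 (adjusted p = 0.328), without T5 (0.195) and without the tumor block (0.0619, limma). None passed between PDGFRA+ and PDGFRA- cells, where 0.0110% of genes were called higher. The subtracted mean is shared by every gene, and the adjusted p-values of this fit do not take that shared noise into account. A linear model without moderation, added after the data were seen, gave 0.0222 for Tnc, 0.0819 for Cspg4 and 0.00341 for Vcan in GAL1- against GAL1+ cells. Vcan did not pass without T4 (adjusted p = 0.234) or without T5 (adjusted p = 0.176, limma). The Cspg4 value rested on T4, whose GAL1+ library was at 5.01 against 2.84 and 2.90 in T3 and T5, and it was -0.38 with T4 left out. In that library Cspg4 exceeded Pdgfra by 2.05 log2 units, with no correction for length, whereas it was below Pdgfra in T3 and T5. In the PDGFRA- library of T4 Cspg4 exceeded Pdgfra as well, by 0.99.

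Over the 12 libraries, pairs of members without Tnc had Pearson's r of 0.70 to 0.99, with a median of 0.93 over 21 pairs, and the 7 pairs with Tnc had 0.48 to 0.67. These are descriptions over libraries that share tumors and sorts. The 10 genes whose profile was most like the mean standardised profile of the members were Ddr1, Camk2b, Ahi1, Pcdhgc4, Pknox2, Slc25a23, Rims4, Mtss2, Klf12 and Kif3c, with r of 0.992 to 0.997. Of 15027 genes compared, 1791 had r above 0.9. Single members were nearest to Sh3gl3 (Tnr, r = 0.998), Klf12 (Ptprz1, 0.997), Sema5b (Bcan, 0.997), Kcnip3 (Cspg5, 0.995), Igfbp2 (Ncan, 0.994), Stox2 (Vcan, 0.990) and Col11a1 (Cspg4, 0.990). Tnc was nearest to Mtmr11, with r = 0.933.

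The partners of the matrix were examined in 5 lists. Of 11 hyaluronan matrix genes, 4 were higher and 3 lower in GAL1- than in GAL1+ cells, and 4 and 1 in PDGFRA+ against GAL1+ cells. Over all genes 29.3% were called higher and 28.9% lower in the first comparison and 20.9% and 17.0% in the second, and the counts of these lists are to be read against those shares. The 4 higher calls were 2 without T4 in the first comparison, and in the second 1 without the tumor block, without T3 or without T4. Acan (aggrecan, a further lectican) was 5.74-fold higher in GAL1- than in GAL1+ cells, from a low level of 0.30 to 2.74 log2 CPM in GAL1+ libraries. Hapln3, a link protein, was 4.06-fold higher but did not pass without T3 or without T4 (adjusted p = 0.0707 and 0.0819, limma). Its GAL1+ libraries had 3 to 17 reads, with that of T4 at the floor. Cd44, a hyaluronan receptor, was at 7.77, 8.13 and 8.26 log2 CPM in GAL1+ cells and at 6.55, 6.90 and 6.88 in GAL1- cells, a difference of -1.28 ± 0.12 (SE, adjusted p = 4.9e-05, limma). Has1, a hyaluronan synthase with 6 to 37 reads per library, had a log2 difference of -1.58, which was -0.85 without T3 (adjusted p = 0.216, limma), and it did not pass without T4 either (0.0561). The hyaluronan receptor thus ran opposite to the lecticans, with groups that did not overlap. The pan-leukocyte markers summed to 2426 to 3347 CPM in GAL1+ libraries and 75.5 to 198 in GAL1- libraries. The part of such cells in the differences of Cd44 and of the other genes of the 5 lists was not tested.

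Of 21 genes for chondroitin sulfate chain synthesis, 9 were higher and 8 lower in GAL1- than in GAL1+ cells, and 7 and 3 in PDGFRA+ against GAL1+ cells. The 8 lower calls were 5 without T5, and the 3 lower calls were 0 without the tumor block or without T3, 1 without T4 or without T5 and 5 after median centring. Chst3 and Chst11, which add sulfate to the chain at carbon 6 and at carbon 4 of galactosamine, were higher by 2.36 ± 0.21 and 1.78 ± 0.25 (SE) in GAL1- cells. Dse, the epimerase that turns chondroitin into dermatan sulfate, had a log2 difference of -2.63 ± 0.38, at 5.66, 5.63 and 5.84 log2 CPM in GAL1+ cells and 3.08, 3.21 and 2.95 in GAL1- cells. Chst12, another carbon 4 sulfotransferase, had a log2 difference of -1.02, and Chst14, which sulfates dermatan, of -0.77 in PDGFRA+ against GAL1+ cells, a call lost with any one tumor left out (adjusted p = 0.0561 to 0.220, limma).

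Of 13 ligands, receptors and adhesion partners, 10 were higher and 1 lower in each of the 2 comparisons. In PDGFRA+ against GAL1+ cells the 10 were 5 without T3 and 6 without the tumor block, and the 1 lower call was lost in both. Cntn1 (contactin-1), a binding partner of tenascin-R and of Ptprz1, was higher by 2.96 ± 0.37 in GAL1- and by 2.63 ± 0.37 (SE) in PDGFRA+ than in GAL1+ cells, and Nfasc (neurofascin) by 2.68 and 2.08. Rtn4rl1, a Nogo receptor homologue, was the one that was lower, with log2 differences of -2.55 and -1.25. Of 7 proteases that cleave lecticans, 3 were higher and none lower in each comparison, among them Adamts20 (1.95 and 1.57) and Adamts9 (1.00 and 0.92). The 3 were 1 in GAL1- and 0 in PDGFRA+ cells without T3, 1 in each without the tumor block and 5 in each without the T5 PDGFRA- library, and Adamts9 did not pass without T3 in either. Of 12 heparan sulfate proteoglycans, 5 were higher and 1 lower in GAL1- cells, and 3 and 1 in PDGFRA+ cells. The 5 were 2 without T3 and 3 without T5, the 3 were 5 without T4 or without the T5 PDGFRA- library, and the lower call in PDGFRA+ cells, Sdc4, was lost without the tumor block, T3 or T4. Gpc5 and Gpc6, glypicans anchored to the membrane, were higher by 2.58 and 1.96 in GAL1- cells, and Sdc4 (syndecan-4) had a log2 difference of -1.05.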

How the data were processed

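RNA of sorted EGFR+ GBM cells was made into libraries with the SMARTer Stranded Total RNAseq v3 Pico kit from 1 ng of RNA. Per the study's methods, the authors trimmed reads with fastp, aligned them to mm39 with STAR, counted exons with featureCounts (multi-mapping reads as fractions), kept genes above 1 CPM in at least 3 samples, and applied TMM and voom. The strand setting of the counting is not given in the sources used here. The values deposited by the authors are log2 CPM with an offset of 0.5, and their fold change columns were not used. Taking the lowest value of a library as 0 reads gave depths of 9851175 to 24117541 reads; 41.7% to 59.4% of values were then whole within 0.02, so no count test was run, and floors cover counting error only.

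Groups followed the sample titles. All genes were fitted with limma 3.58.1 (R 4.3.3) on all 12 libraries, with population and tumor as terms and a mean-variance trend. P-values were two-sided and adjusted by Benjamini-Hochberg over 18180 genes, with 0.05 as the threshold. The same tumor number marks fractions of the same tumor, and 18 same-tumor pairs of libraries had deviations correlated at 0.14 to 0.66 (mean 0.49). The fit was tested on simulated data. Named partner genes were the 2 highest and 2 lowest called genes per list that moved one way in all 3 tumors; likeness was Pearson's r over 12 libraries. The members and lists were chosen with earlier results of these data known. Alternatives are given in the closing section. Figures used matplotlib. Exon lengths came from GENCODE vM21 and promoters from RefSeq. One further engineered allele of the model is not reported here.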

Additional observations from a re-analysis of the deposited data

Results flagged for a closer look

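The GAL1 sort and the PDGFRA sort separated 5 members by different amounts, in a test of the difference itself (GAL1- minus GAL1+ less PDGFRA+ minus PDGFRA-, limma, adjusted over all genes). The difference was 2.61 for Tnr (2.98 between GAL1 fractions and 0.37 between PDGFRA fractions, adjusted p = 0.00295) and 2.40 for Bcan (2.77 and 0.37, adjusted p = 0.00466). It was 1.74 for Vcan (1.94 and 0.20, adjusted p = 0.00258), 1.64 for Ptprz1 (2.48 and 0.85, adjusted p = 0.0240) and 1.55 for Cspg5 (2.81 and 1.25, adjusted p = 0.0442). Of these 5, Tnr and Vcan passed in all 14 alternatives, while Bcan, Ptprz1 and Cspg5 did not. In the same contrast all 10 pan-leukocyte markers were lower, with a median of -4.10, and all 8 lineage genes higher, with a median of 2.27. Their part in the member differences was not tested. No formal outlier test was run on groups of 3.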

How the results depend on the processing

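The 7 members called between GAL1- and GAL1+ cells numbered 6 to 8 under the alternatives, and the 7 called between PDGFRA+ and GAL1+ cells numbered 5 to 7. Without the replicate block for tumor (the reported fit pairs libraries of 1 tumor), 3 members were called in the difference of the sorts in place of 5, 3 in place of 5 between PDGFRA- and GAL1+ cells, 0 in place of 2 between GAL1- and PDGFRA- cells, and 1 in place of 2 relative to lineage genes between PDGFRA+ and GAL1+ cells. Without it 7 were called between GAL1- and GAL1+ cells and 5 between PDGFRA+ and GAL1+ cells. Over all genes the fit without the block called 2592 in the difference of the sorts. It called 725 between PDGFRA- and GAL1+ cells and 1444 between GAL1- and PDGFRA- cells. With only the 2 populations in the fit, 0 members were called in GAL1- against PDGFRA- cells, 2 in GAL1- against PDGFRA+ cells, and 1 in each of GAL1- and PDGFRA+ against GAL1+ relative to lineage genes. Over all genes those fits called 1328, 3386, 15928 and 15990 in the same order. The difference of the sorts has no fit of that kind. Quantile normalization gave 7 members and median centring 6 in GAL1- against PDGFRA- cells. There 13.8% and 12.7% of all genes were called higher, against 6.88% in the reported fit. Quantile normalization and a pseudocount of 1 CPM each gave 1 in PDGFRA+ against GAL1+ cells relative to lineage genes. A linear model without moderation, chosen after seeing the data, gave 3 in the difference of the sorts, 3 in PDGFRA- against GAL1+ cells and 0 in GAL1- against PDGFRA- cells. Over all genes that model called 4014, 829 and 2441 in the same order. With 1 tumor or the T5 PDGFRA- library left out, the counts ran from 2 to 7 in the difference of the sorts, 0 to 7 in PDGFRA- against GAL1+, 0 to 3 in GAL1- against PDGFRA-, and 1 to 3 in both lineage-relative comparisons with GAL1+. Calls over all genes moved too. In the difference of the sorts there were 1896 without T4 and 2578 without T3, against 5651 in the reported fit. In PDGFRA- against GAL1+ there were 0 without T4 and 788 without T3, against 3652. In GAL1- against PDGFRA- there were 920 without T5 and 2009 without the T5 PDGFRA- library, against 4200. Median centring moved every gene by -0.16 in PDGFRA+ against GAL1+ cells, where the member median became 2.02, by -0.14 in PDGFRA- against GAL1+ and by 0.11 in GAL1- against PDGFRA+. The causes of these changes were not tested.

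Set against the alternatives, the named partner genes kept the call 432 times and lost it 28 times, with no change of sign. Signs turned only for member values that had not passed. For Tnc these were -0.12 (lowest; 1.66 highest) in the difference of the sorts, -0.24 to 1.25 in GAL1- against PDGFRA-, -0.36 to 1.22 in PDGFRA- against GAL1+, -0.81 to 1.00 in PDGFRA+ against PDGFRA- and, relative to lineage genes, -0.96 to 0.60, with 1 library or tumor left out. Relative to lineage genes, leaving out a tumor or the T5 PDGFRA- library gave -0.12 to 0.20 for Bcan and -0.035 to 0.12 for Tnr in PDGFRA+ against PDGFRA-, -0.091 to 0.089 for Bcan in PDGFRA+ against GAL1+ and -0.11 to 0.071 for Cspg5 in GAL1- against GAL1+. On that scale GAL1- against GAL1+ became 0.14 for Bcan, 0.12 for Cspg5, 0.013 for Ncan and 0.29 for Ptprz1 under quantile normalization and 0.018 for Bcan and 0.048 for Cspg5 with a pseudocount of 1 CPM, and PDGFRA+ against GAL1+ became 0.15 for Ncan and 0.26 for Ptprz1 under quantile normalization.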
